A study of Mus musculus with 24 samples.

Results

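The integrin and laminin genes of mouse C3H 10T1/2 fibroblasts, an embryo-derived line that forced expression of MyoD turns towards muscle, were described in 24 RNA libraries. The genes were chosen by name: every gene with a reference-named transcript in the files whose symbol is an integrin alpha or beta chain or a laminin alpha, beta or gamma chain, leaving out the integrin-binding proteins. Of 39 genes so named in the annotation, 25 had such a transcript, out of 35155 genes in all with one. They are 9 integrin alpha chains, 8 integrin beta chains, the integrin-like gene Itgbl1 and 7 laminin chains. Of the other 14, Itga2, Itga9, Itga10, Itga11, Itgae, Itgam, Itgb2, Lama3, Lama5 and Lamc3 had unnamed transcripts only, and Itga4, Itgad, Itgax and Lama1 had none.

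Wild type cells and 2 LncMyoD knockout clones were each left untreated, infected with MyoD adenovirus, given a plasmid that holds LncMyoD, or given both. That makes 12 groups of 2 libraries. Each clone is a single line, so a clone that differs from wild type is a difference between 2 lines and no test of the knockout. No group was labelled as an empty virus or empty vector control. Whether the 2 libraries of a group came from separate cultures was not given in the labels, so a p-value here reflects library spread that may be technical. Per the labels' protocols, cells grew in 10% FBS and were moved to 2% HS after MyoD induction, so MyoD and the change of medium cannot be told apart. LncMyoD itself was not analysed here.

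Integrins are receptors of 1 alpha and 1 beta chain that span the cell membrane and tie the matrix outside to the actin skeleton inside. Itgb1 pairs with most alpha chains, and the alpha chain largely sets the ligand: fibronectin for Itga5, collagen for Itga1 and Itga2, laminin for Itga3, Itga6 and Itga7. Laminins are cross-shaped trimers of an alpha, a beta and a gamma chain and the main adhesive protein of basement membranes. In skeletal muscle, laminin with the Lama2 chain surrounds the fibre, where Itga7 with Itgb1 and the dystroglycan complex bind it. Laminins with Lama4 are typical of mesenchymal and vascular cells, and those with Lama3 or Lamb3 are typical of epithelium.

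Of 5 genes that fell when clone 2 received MyoD, Itga5, Itgb1, Lamb1 and Lamb2 matched a RefSeq promoter entry and Lama4 did not. The matched 4 are shown by the bases upstream of their RefSeq transcription start, since MyoD binds E-boxes, CANNTG. Sequences are from RefSeq (build GRCm38.p6), 5′ to 3′ on the gene's strand, within the 250 bases before the start and cut where the annotated gene begins; capitals mark CANNTG. They come from chr15:103366792-103367041 (minus strand), chr8:128685404-128685653 (plus strand), chr12:31265043-31265233 (plus strand) and chr9:108479612-108479735 (plus strand).
Itga5: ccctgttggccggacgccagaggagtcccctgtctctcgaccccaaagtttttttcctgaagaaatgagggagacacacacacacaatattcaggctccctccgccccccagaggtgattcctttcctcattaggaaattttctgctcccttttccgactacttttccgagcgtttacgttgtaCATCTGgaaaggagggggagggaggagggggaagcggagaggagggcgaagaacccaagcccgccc
Itgb1: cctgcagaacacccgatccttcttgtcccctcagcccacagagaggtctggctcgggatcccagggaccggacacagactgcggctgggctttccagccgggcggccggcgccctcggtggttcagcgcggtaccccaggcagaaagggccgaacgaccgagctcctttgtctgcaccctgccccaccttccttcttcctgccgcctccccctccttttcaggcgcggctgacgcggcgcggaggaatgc
Lamb1: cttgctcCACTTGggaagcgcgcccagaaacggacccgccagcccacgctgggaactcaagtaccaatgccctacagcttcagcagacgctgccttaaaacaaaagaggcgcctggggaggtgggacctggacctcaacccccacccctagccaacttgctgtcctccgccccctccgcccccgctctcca
Lamb2: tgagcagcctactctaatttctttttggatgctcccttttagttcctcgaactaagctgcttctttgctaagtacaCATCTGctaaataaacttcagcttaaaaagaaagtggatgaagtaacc
The stretches of Itga5, Lamb1 and Lamb2 each hold 1 match, at -66, -243 and -174 counted from the RefSeq start, and the Itgb1 stretch holds none. The cut leaves out a second Lamb1 match, CATGTG at -61. The counts that follow are over uncut windows. Of the 25 genes, 17 had an entry, with 20 windows of 250 bases. CANNTG, which reads the same on both strands, was in 18 of the 20 windows (90%) and in 66.2% of 32851 windows of all genes. CAGCTG, a form of CANNTG that is counted in both searches, was in 5 of 20 (25%) against 13.0%. A match describes letters only; no binding was measured.

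Levels are given as rescaled TPM. TPM, a relative measure of transcript abundance, is the authors' value per transcript; it was summed per gene, and ribosomal, mitochondrial and unassigned transcripts were left out before scaling each library to a total of 1000000. The step matters because ribosomal sequence took only 2.71% to 8.50% of TPM in the clone 2 libraries, but 59.0% to 69.3% in those of wild type and 46.8% to 72.0% in those of clone 1. Each clone 2 library had 2.43 to 3.43 gigabases on genes, each wild type library 0.963 to 1.24 and each clone 1 library 0.280 to 0.739, so values are most precise in clone 2 and least in clone 1. In clone 2 the ribosomal share and the sequence on genes both went with the line. Differences of clone 2 from the other lines cannot be told apart from them. Read numbers per gene are unknown. A gene listed at 0 can be a failed assembly. Over the 29136 genes tested, which are not independent replicates, Pearson's r of log2 values was 0.863 to 0.895 among wild type libraries. It was 0.705 to 0.846 among clone 1 libraries and 0.916 to 0.963 among clone 2 libraries. A wild type and a clone 2 library gave 0.729 to 0.784. One library, clone 1 with MyoD replicate 1, had 37.2% of its TPM in unassigned transcripts, the highest share. Fibroblast markers were present in every group, and 1 of 10 (Lum) was at 0 in 3 libraries. With virus, Myod1 reached 24349 to 30042 rescaled TPM in wild type and 16644 to 30716 in clone 1, but 1503 to 1739 in clone 2. Without virus it stood at 20.7 to 24.5, at 32.6 to 41.1 and at 0 to 1.82 in the same order. Without and with MyoD, summed muscle markers were 7.75 to 18.1 and 570 to 713 in wild type, 11.7 to 65.6 and 297 to 552 in clone 1, and 11.9 to 24.04 and 895 to 1552 in clone 2.

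The first question was what MyoD does to these genes in each line. In clone 2, 5 of 25 genes fell and none rose: Itga5, Itgb1, Lama4, Lamb1 and Lamb2, by between 3.10-fold and 4.12-fold. In wild type and in clone 1 no member passed the test in either direction. The test was limma on log2(rescaled TPM + 1), with 4 libraries on each side (plasmid groups included) and Benjamini-Hochberg adjustment over 29136 genes; a gene was called at an adjusted p under 0.05 and a log2 change of at least 1. All 25 genes passed the filter on low values. Over all genes, 2.39% were called lower and 0.618% higher in clone 2 (3% in all). In wild type 0.0343% were called lower and 0.237% higher (0.271% in all), and in clone 1 0.7% lower and 0.783% higher (1.48% in all). The median log2 change of the members was -0.89 in clone 2, beside -0.07 over all genes, and 20 of the 25 had a value below 0. In wild type the medians were 0.02 and 0, and in clone 1 they were 0.17 and 0. At an unadjusted p under 0.05 there were 2 members in wild type, 4 in clone 1 and 10 in clone 2, and 1396, 4047 and 3542 of all genes.

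**Figure D1:**
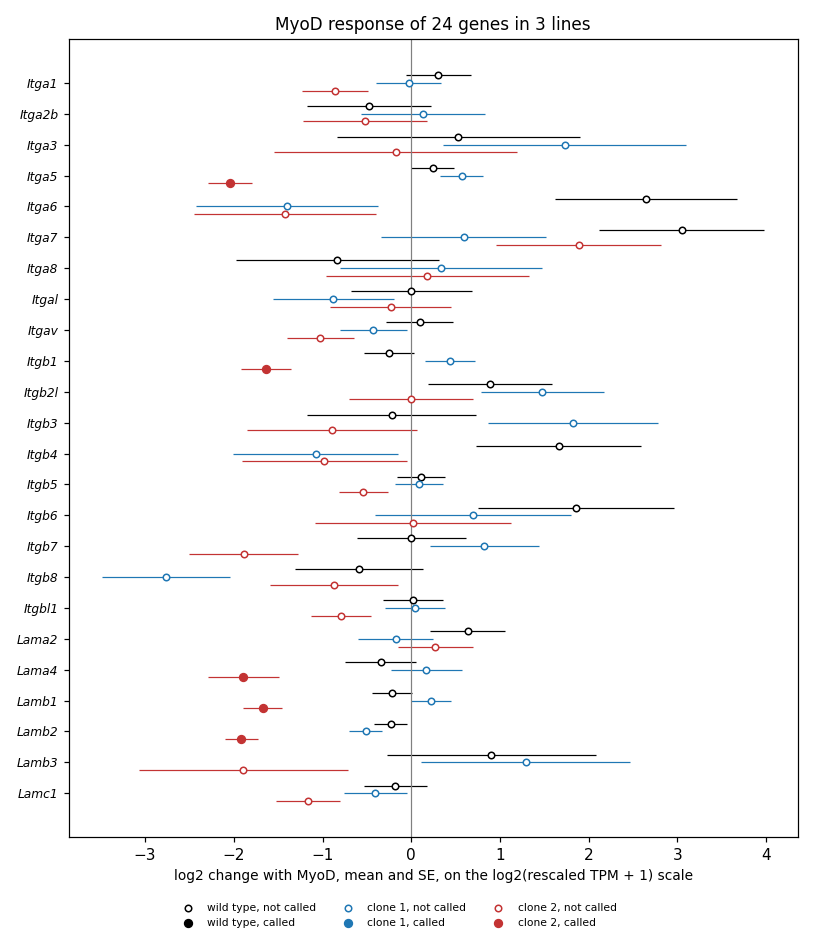
Log2 change with MyoD (mean and SE, from 4 against 4 libraries) of 24 of the 25 genes in wild type, clone 1 and clone 2, on the log2(rescaled TPM + 1) scale; filled points were called. The 5 filled points are all in clone 2, left of 0, at Itga5, Itgb1, Lama4, Lamb1 and Lamb2.

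Itga5 (chr15:103344286-103366763, minus strand) is the fibronectin receptor's alpha chain. In wild type, Itga5 stood at 131 and 152 untreated, 139 and 146 with plasmid, 197 and 142 with MyoD and 127 and 223 with both. In clone 1 the Itga5 levels were 136 and 138 untreated, 129 and 51.5 with plasmid, 193 and 208 with MyoD and 119 and 128 with both. In clone 2 they were 147 and 181 untreated, 183 and 210.3 with plasmid, 32.7 and 42.9 with MyoD and 46.2 and 50.97 with both. The 4 clone 2 libraries with MyoD all lay below every other library of the 3 lines. Itga5 fell in clone 2 (log2 -2.04 ± 0.245 (SE), adjusted p = 7.32e-05), against 0.24 in wild type and 0.57 in clone 1, neither called. Without MyoD, exon coverage put Itga5 lower in clone 1 than in wild type (log2 -1.15 ± 0.156 (SE), adjusted p = 3.17e-04), where TPM gave -0.42 and no call.

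Itgb1 (chr8:128685654-128733200, plus strand) is the shared beta chain. In wild type it was at 33.3 and 56.3 untreated, 58.9 and 62.7 with plasmid, 59.2 and 37.5 with MyoD and 38.6 and 39.3 with both. Its levels in clone 1 were 39.7 and 70.1 untreated, 60.1 and 36.1 with plasmid, 86.03 and 45.3 with MyoD and 67.02 and 79.7 with both. In clone 2 Itgb1 was at 268 and 463 untreated, 471 and 509 with plasmid, 134 and 108 with MyoD and 127 and 171 with both. All 8 clone 2 libraries lay above all 16 libraries of the other lines, and within clone 2 the libraries with MyoD lay below those without. The fall with MyoD was 3.10-fold (log2 -1.63 ± 0.281 (SE), adjusted p = 0.00225). Even after it, Itgb1 in clone 2 was 3.06-fold above wild type with MyoD (log2 1.61 ± 0.281 (SE), adjusted p = 2.63e-04), and without MyoD it was 7.96-fold above (log2 2.99 ± 0.281 (SE), adjusted p = 3.14e-07).

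Lama4 (chr10:38965515-39110188, plus strand) encodes the alpha chain of mesenchymal laminins. In wild type, Lama4 was at 87.7 and 65.9 untreated, 94.1 and 34.9 with plasmid, 73.99 and 37.1 with MyoD and 52.7 and 50.3 with both. In clone 1, Lama4 was at 34.5 and 119.9 untreated, 58.4 and 166 with plasmid, 65.6 and 96.4 with MyoD and 106 and 97.7 with both. In clone 2, Lama4 was at 188 and 239 untreated, 231 and 211 with plasmid, 52.2 and 59.3 with MyoD and 68.8 and 51.6 with both. The clone 2 libraries without MyoD were the highest of the series, and those with MyoD lay within the wild type range. It fell 3.71-fold in clone 2 (log2 -1.89 ± 0.3998 (SE), adjusted p = 0.011) and without MyoD was 3.24-fold above wild type there (log2 1.70 ± 0.3998 (SE), adjusted p = 0.00387). Without the untreated clone 2 replicate 2 the fall missed the threshold (adjusted p = 0.0508).

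Lamb1 (chr12:31265234-31329644, plus strand) and Lamb2 (chr9:108479736-108490530, plus strand) are alternative beta chains; laminins with Lamb2 are known from the neuromuscular junction. Lamb1 in wild type was at 289 and 182 untreated, 419 and 193 with plasmid, 182 and 192 with MyoD and 240.3 and 277 with both. Lamb1 in clone 1 was at 299 and 405 untreated, 161 and 169 with plasmid, 304 and 293 with MyoD and 235 and 296 with both. Lamb1 in clone 2 was at 104 and 137 untreated, 141 and 131 with plasmid, 29.1 and 39.5 with MyoD and 41.3 and 49.9 with both. On rescaled TPM every clone 2 value was below every value of the other lines, with or without MyoD, and with MyoD Lamb1 fell further (log2 -1.67 ± 0.222 (SE), adjusted p = 2.17e-04). Without MyoD the difference of clone 2 from wild type was not called. On TPM as deposited the order of the untreated libraries reversed. Lamb1 was at 74.2 and 107 in clone 2, 38.1 and 28.3 in wild type and 22.4 and 37.1 in clone 1. Lamb2 in wild type was at 221 and 185 untreated, 204 and 179 with plasmid, 162 and 208 with MyoD and 162 and 143 with both. Lamb2 in clone 1 was at 338 and 459.5 untreated, 256 and 254 with plasmid, 283 and 243 with MyoD and 137 and 257 with both. Lamb2 in clone 2 was at 196 and 213 untreated, 236 and 184 with plasmid, 42.2 and 47.4 with MyoD and 59.7 and 71.0 with both. Without MyoD the Lamb2 levels of clone 2 and wild type overlapped; with MyoD all 4 clone 2 values lay below all others. Its fall in clone 2 was 3.77-fold (log2 -1.91 ± 0.186 (SE), adjusted p = 8.59e-06).

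**Figure D2:**
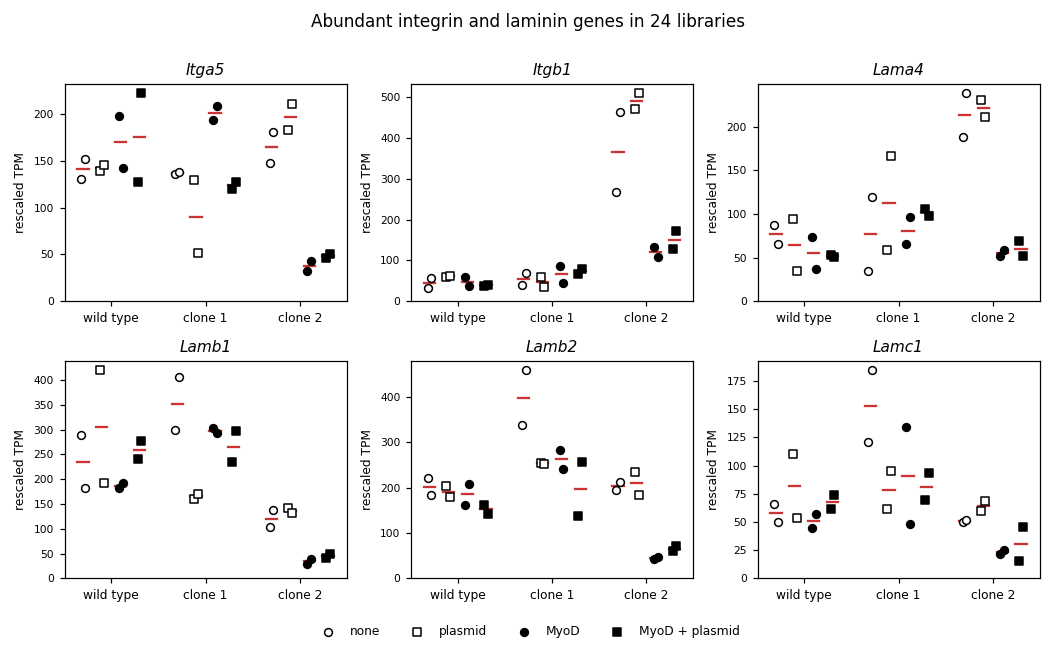
Rescaled TPM of 6 genes in each of the 24 libraries, by line; open symbols are without and filled symbols with MyoD, squares are with plasmid, and red lines are means of 2 libraries. In clone 2 the filled symbols lie below the open ones for Itga5, Itgb1, Lama4, Lamb1, Lamb2 and Lamc1.

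Lamc1 (chr1:153218922-153332786, minus strand), the gamma chain of most laminins, moved the same way in clone 2 without passing the test (log2 -1.16 ± 0.356 (SE), adjusted p = 0.0904). It was at 49.7 and 51.8 untreated, 59.8 and 68.6 with plasmid, 21.2 and 25.1 with MyoD and 15.8 and 45.3 with both there. Wild type values of Lamc1 were 65.9 and 49.7 untreated, 110.03 and 53.8 with plasmid, 45.1 and 57.2 with MyoD and 61.6 and 73.98 with both. Clone 1 values of Lamc1 were 120.4 and 184 untreated, 61.3 and 94.8 with plasmid, 134 and 48.04 with MyoD and 69.6 and 92.99 with both. In clone 2 the 4 libraries with MyoD lay below the 4 without, while in the other lines the ranges overlapped. With exon coverage, the deposited coverage summed over the annotated exons of a gene and divided by their length, Lamc1 was called lower in clone 2 with MyoD (log2 -1.68 ± 0.245 (SE), adjusted p = 3.04e-04), and so was Itga1 (log2 -1.63 ± 0.328 (SE), adjusted p = 0.00539). The 5 genes called from TPM were called by this measure too, with log2 values of -2.03 for Itga5, -1.64 for Itgb1, -1.81 for Lama4, -1.89 for Lamb1 and -1.98 for Lamb2. When only transcripts with a reference name were counted, none of the 5 passed; the values kept their sign, from -1.68 for Itgb1 to -2.72 for Lamb1, with adjusted p from 0.0726 to 0.734.

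Other measures moved with MyoD in clone 2 beside these genes. Summed fibroblast markers were 19961 to 22694 without and 9872 to 12157 with MyoD, against 3901 to 4111 and 3732 to 4027 in wild type. The list did not move in 1 direction in clone 2. Collagen Col1a1 was at 4117 to 5596 without and 764 to 994 with MyoD. S100a4 was higher with MyoD, at 3132 to 3759 without and 4364 to 5209 with it, and so was Vim, at 1319 to 1668 and 1695 to 2039. The ribosomal share of TPM was 2.71% to 4.93% without and 6.08% to 8.50% with MyoD. Summed muscle markers were higher with MyoD, as given above. Their part in the falls was not tested. In such bulk libraries, fewer cells of a type and less RNA per cell cannot be told apart. The leukocyte, epithelial, endothelial, neural and platelet lists each summed to at most 26.3 in any clone 2 library with MyoD; among them the leukocyte marker Adgre1 was at 0 in all 24 libraries.

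Summed over the 7 laminin genes, clone 2 held 563 to 693 rescaled TPM without and 155 to 236 with MyoD. Wild type held 521 to 951 and 603 to 697, and clone 1 held 945 to 1407 and 826 to 1305. The 9 alpha chains summed to 282 to 381 and 135 to 168 in clone 2, against 271 to 294 and 287 to 390.0 in wild type. Both sums in clone 2 with MyoD therefore lay below all other libraries. The 8 beta chains summed to 356 to 618 and 178 to 235 in clone 2 and to 122 to 177 and 118 to 224 in wild type. Itgb1 was the highest of them in each clone 2 library.

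Whether the lines respond differently was asked with the difference between their MyoD responses. Clone 2 minus wild type was called for 3 of 25 genes, all lower: Itga5 (log2 -2.29 ± 0.346 (SE), adjusted p = 0.00264), Lamb2 (log2 -1.68 ± 0.263 (SE), adjusted p = 0.0033) and Lamb1 (log2 -1.46 ± 0.314 (SE), adjusted p = 0.0302). Over all genes 0.896% were called lower and 0.223% higher (1.12% in all). The median difference over the members was -1.12, beside -0.14 over all genes. Itgb1 and Lama4 had differences of -1.38 and -1.55 that did not pass (adjusted p = 0.135 and 0.302). By exon coverage 6 members were called, all lower: Itga5, Lamb1, Lamb2, Lamc1 (-1.83, adjusted p = 0.00864), Lama4 (-1.56, adjusted p = 0.0277) and Itgb4 (-2.67, adjusted p = 0.0449). With reference-named transcripts only, none was called, with adjusted p of 0.956 for Itga5, 0.732 for Lamb2 and 0.172 for Lamb1. The Lamb1 call was lost without any 1 of 10 of the 16 libraries (wild type untreated 2, wild type MyoD 1 and 2, wild type plasmid 2, wild type combined 2, clone 2 untreated 2, clone 2 MyoD 1, clone 2 plasmid 1 and 2, clone 2 combined 1; adjusted p = 0.0559 to 0.0834), while those of Itga5 and Lamb2 stayed under the threshold in all 16. For clone 1 minus wild type no member was called, beside 0.309% of all genes (0.134% higher and 0.175% lower). At an unadjusted p under 0.05 there were 2 of 25 members and 2543 of 29136 genes. The 2 differences share the wild type libraries.

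Itga7 (chr10:128933818-128958282, plus strand), the laminin-binding alpha chain of muscle, was higher in each wild type library with MyoD than in each without, but the change did not pass the test on summed TPM. In wild type it was at 0.122 and 10.6 untreated, 0.6596 and 9.75 with plasmid, 18.9 and 35.2 with MyoD and 50.3 and 28.6 with both. In clone 1, Itga7 was at 37.8 and 70.5 untreated, 8.57 and 0.363 with plasmid, 1.41 and 50.9 with MyoD and 34.04 and 41.6 with both. In clone 2, Itga7 was at 1.28 and 0.499 untreated, 5.29 and 10.7 with plasmid, 11.5 and 8.94 with MyoD and 26.3 and 12.8 with both. The spread between replicates was wide: the fitted change was log2 3.05 ± 0.9302 (SE), adjusted p = 0.471 in wild type, 0.59 (adjusted p = 0.854) in clone 1 and 1.89 (adjusted p = 0.454) in clone 2. Exon coverage, which gives little weight to short fragments, put it at 0.0886 and 2.72 untreated, 0.467 and 2.74 with plasmid, 13.4 and 23.6 with MyoD and 34.96 and 19.5 with both in wild type. On that scale it rose in wild type (log2 3.38 ± 0.614 (SE), adjusted p = 0.0228). In clone 2 the coverage values were 0.6501 and 0.327 untreated, 1.32 and 2.28 with plasmid, 5.94 and 6.36 with MyoD and 4.57 and 6.29 with both, and the change did not pass (log2 1.74 ± 0.614 (SE), adjusted p = 0.139). Clone 1 coverage was 20.8 and 14.6 untreated, 6.36 and 0.271 with plasmid, 1.13 and 8.84 with MyoD and 11.2 and 6.68 with both, with its 2 untreated libraries above its virus libraries. With MyoD, Itga7 coverage was lower in clone 2 than in wild type (log2 -1.75 ± 0.614 (SE), adjusted p = 0.0416). The difference in response between the lines was not called on either scale.

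The longest assembled Itga7 transcripts also differed between the groups. A transcript of 25 or 26 exons was assembled in 4 of 4 wild type libraries with MyoD, and in the 4 without MyoD the longest had 10. From reference-named transcripts only, wild type Itga7 was at 0.183 and 0.194 untreated and 0.958 and 0.0297 with plasmid. It was at 27.3 and 24.7 with MyoD and 67.7 and 42.7 with both. By that count Itga7 with MyoD was at 2.79 and 0.622 in clone 1 and 3.65 and 0.00228 in clone 2. In clone 2, 3 of 4 libraries with MyoD and 0 of 4 without had an Itga7 transcript of at least 20 exons, and in clone 1 the counts were 0 of 4 and 1 of 4. Clone 1 had the least sequence on genes; its part in these counts was not tested.

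**Figure D3:**
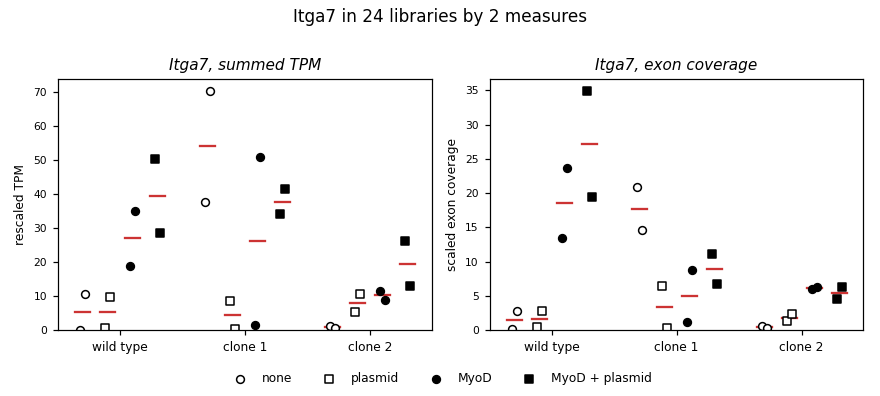
Itga7 in each of the 24 libraries, as rescaled TPM (left) and as exon coverage scaled to 1000000 per library (right); open symbols are without and filled symbols with MyoD, squares are with plasmid, and red lines are means of 2 libraries. Filled wild type symbols lie above open ones in both panels, from 18.9 to 50.3 rescaled TPM on the left.

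Itga6 and Itga3 are the other laminin-binding alpha chains. Itga6 was listed at 0 in all 4 wild type libraries without MyoD and at 9.16, 18.03, 6.90 and 0 with it. In clone 1, Itga6 was at 0 and 7.42 untreated, 32.5 and 3.43 with plasmid, 0 and 24.4 with MyoD and 0 and 0 with both. In clone 2, Itga6 was at 6.77 and 4.42 untreated, 14.1 and 6.81 with plasmid, 1.71 and 5.94 with MyoD and 4.14 and 0 with both. It was called higher in clone 2 than in wild type without MyoD (adjusted p = 0.0349), with no fold given against a group at 0; the call was lost without any 1 of the 8 libraries (wild type untreated 1 and 2, wild type plasmid 1 and 2, clone 2 untreated 1 and 2, clone 2 plasmid 1 and 2; adjusted p = 0.0601 to 0.114). Mean Itga3 levels in the untreated, plasmid, MyoD and combined groups were 14.3, 22.4, 27.2 and 25.9 in wild type and 1.197, 3.404, 1.504 and 2.28 in clone 2. In clone 1 the Itga3 libraries were at 0 and 0 untreated, 24.4 and 0 with plasmid, 0 and 28.3 with MyoD and 0 and 104 with both, so 3 of its 4 groups each rest on 1 library. By exon coverage Itga3 was lower in clone 2 than in wild type without MyoD (log2 -2.48 ± 0.819 (SE), adjusted p = 0.0293) and with it (log2 -3.08 ± 0.819 (SE), adjusted p = 0.0077). Unnamed transcripts made up 97.6% of the TPM of Itga6, 91.6% of that of Itga3 and 74.1% of that of Itga7.

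The second question was how the clones differ from wild type without and with MyoD; these comparisons share the wild type libraries. Without MyoD, clone 1 had 3 genes higher (Itga1, Itgb4, Lama2) and 1 lower (Itga2b) of 25, beside 1.14% of all genes higher and 1.1% lower (2.24% in all). With MyoD only Itga1 was called, higher, beside 2.2% of all genes higher and 1.96% lower (4.16% in all). Clone 2 without MyoD had 5 higher (Itga6, Itgb1, Itgb4, Itgb7, Lama4) and 1 lower (Lama2), where 16.4% of all genes were higher and 8.29% lower, so 6 of 25 lies near the share of all genes called, 24.7%. With MyoD clone 2 had 1 higher (Itgb1) and 6 lower (Itga1, Itga5, Lama2, Lamb1, Lamb2, Lamc1), where 14.6% of all genes were higher and 10.5% lower; 7 of 25 is near the 25.2% of all genes called. These splits depend on the scaling: on TPM as deposited they were 0 higher and 2 lower in clone 1 at either virus state, and 17 and 0 without MyoD and 10 and 0 with MyoD in clone 2. With size factors by the median of ratios, clone 2 without MyoD had 5 higher and 2 lower, and clone 1 with MyoD had 1 and 2. Quantile normalization gave 3 and 2, and 1 and 1.

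**Figure D4:**
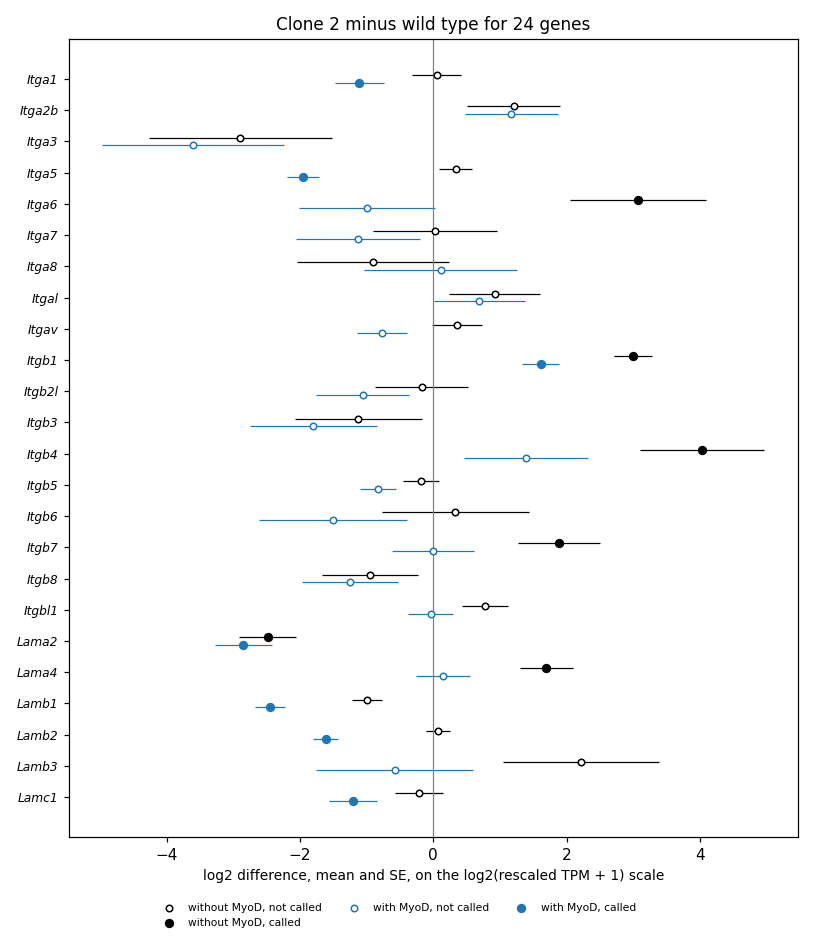
Log2 difference of clone 2 minus wild type (mean and SE, from 4 against 4 libraries) for 24 of the 25 genes, black without and blue with MyoD, on the log2(rescaled TPM + 1) scale; filled points were called. Itgb1 lies right of 0 at 2.99 and 1.61, and Lama2 left of 0 at -2.48 and -2.85.

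Lama2 (chr10:26980036-27619758, minus strand), the muscle laminin alpha chain, ordered the 3 lines: lowest in clone 2, then wild type, then clone 1. Wild type Lama2 was at 129.8 and 28.8 untreated, 121 and 107 with plasmid, 132 and 196 with MyoD and 157 and 71.1 with both. Clone 1 Lama2 was at 374 and 229.9 untreated, 421 and 261 with plasmid, 491 and 381 with MyoD and 275 and 113 with both. Clone 2 Lama2 was at 17.3 and 13.3 untreated, 16.3 and 10.5 with plasmid, 10.5 and 22.1 with MyoD and 20.4 and 18.5 with both. No clone 2 library reached any library of the other lines, and with MyoD the wild type and clone 1 ranges overlapped. Clone 2 was 5.60-fold below wild type without MyoD (log2 -2.48 ± 0.425 (SE), adjusted p = 2.43e-04) and 7.20-fold below with it (log2 -2.85 ± 0.425 (SE), adjusted p = 5.48e-05); on TPM as deposited these became -0.01 and -0.54, not called. Clone 1 without MyoD was 3.70-fold above wild type (log2 1.89 ± 0.425 (SE), adjusted p = 0.0226), a call that was lost without any 1 of 5 of the 8 libraries (wild type untreated 2, wild type plasmid 1 and 2, clone 1 untreated 1, clone 1 plasmid 1; adjusted p = 0.0592 to 0.0901) and that turned to -1.03 with reference-named transcripts only. Unnamed transcripts made up 99.2% of Lama2 TPM. By exon coverage Lama2 was at 15.5 to 20.8 in wild type without MyoD and 1.48 to 2.63 in clone 2, with the same call (log2 -2.52 ± 0.302 (SE), adjusted p = 3.89e-06). The excess in clone 1 was not called by that measure (log2 0.87 ± 0.302 (SE), adjusted p = 0.15). Lama2 did not pass the test for MyoD in any line, with log2 values of 0.64 in wild type, -0.17 in clone 1 and 0.27 in clone 2.

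Itga1 (chr13:114953096-115101964, minus strand), a collagen receptor chain, was higher in clone 1 than in the other lines on rescaled TPM. Wild type Itga1 was at 22.98 and 27.5 untreated, 24.9 and 22.02 with plasmid, 31.9 and 32.7 with MyoD and 28.2 and 28.4 with both. Clone 1 Itga1 was at 55.5 and 67.5 untreated, 197 and 73.8 with plasmid, 97.6 and 51.7 with MyoD and 90.2 and 111 with both. Clone 2 Itga1 was at 17.9 and 25.3 untreated, 28.8 and 30.96 with plasmid, 10.1 and 15.7 with MyoD and 26.5 and 7.58 with both. All 8 clone 1 values lay above all 16 others on this scale. On TPM as deposited they did not: untreated Itga1 was at 4.16 and 6.17 in clone 1 and at 12.8 and 19.7 in clone 2. Clone 1 was 3.44-fold above wild type without MyoD (log2 1.78 ± 0.368 (SE), adjusted p = 0.0131) and 2.73-fold above with it (log2 1.45 ± 0.368 (SE), adjusted p = 0.032). Each of these 2 calls held in 9 of 13 processing alternatives, with the sign kept in all. The second call was lost without any 1 of 6 of the 8 libraries (wild type MyoD 1 and 2, wild type combined 1 and 2, clone 1 MyoD 1, clone 1 combined 2; adjusted p = 0.0762 to 0.0844); clone 1 MyoD 1 is the library with the high unassigned share (adjusted p = 0.0844 without it). With MyoD, clone 2 was lower than wild type (log2 -1.11 ± 0.368 (SE), adjusted p = 0.0326), but the sign turned on TPM as deposited (1.01) and the call was lost without any 1 of 6 of the 8 libraries (wild type MyoD 1 and 2, wild type combined 1 and 2, clone 2 MyoD 1, clone 2 combined 2; adjusted p = 0.0681 to 0.193).

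The clone 2 deficits with MyoD in Itga5 (log2 -1.95 ± 0.245 (SE), adjusted p = 8.11e-06), Lamb2 (log2 -1.61 ± 0.186 (SE), adjusted p = 3.12e-06) and Lamc1 (log2 -1.20 ± 0.356 (SE), adjusted p = 0.0176) likewise turned to 0.35, 0.69 and 1.02 on TPM as deposited. That of Lamb1 (log2 -2.45 ± 0.222 (SE), adjusted p = 1.71e-07) shrank to -0.13. The levels given above show that, on rescaled TPM, clone 2 and wild type do not overlap with MyoD for Itga5, Lamb1 and Lamb2, while for Lamc1 1 clone 2 library (45.3) reaches the wild type range of 45.1 to 74.0 and the call was lost without any 1 of 4 of the 8 libraries (wild type MyoD 2, wild type combined 2, clone 2 MyoD 1, clone 2 combined 1; adjusted p = 0.0577 to 0.113). The excess of Itgb1 in clone 2 kept its sign and its call at both virus states on TPM as deposited, at 5.38 and 3.76.

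Itgb4 (chr11:115974709-116008412, plus strand), partner of Itga6 in the hemidesmosomes of epithelium, was low in untreated wild type and present in both clones. In wild type, Itgb4 was at 0 and 3.03 untreated, 0 and 0 with plasmid, 35.7 and 0 with MyoD and 10.04 and 0 with both. In clone 1, Itgb4 was at 18.2 and 48.3 untreated, 34.1 and 16.9 with plasmid, 7.54 and 11.7 with MyoD and 9.24 and 25.9 with both. In clone 2, Itgb4 was at 21.4 and 18.9 untreated, 25.5 and 23.8 with plasmid, 8.82 and 12.5 with MyoD and 6.83 and 17.6 with both. Without MyoD both clones lay above all 4 wild type libraries, of which 3 were listed at 0. The difference was called in clone 2 (adjusted p = 0.00327), also without each of the 8 libraries compared. In clone 1 it was called (adjusted p = 0.0183), and the call was lost without any 1 of 5 of the 8 libraries (wild type untreated 1, wild type plasmid 1 and 2, clone 1 untreated 2, clone 1 plasmid 1; adjusted p = 0.0502 to 0.0797). Unnamed transcripts made up 99.8% of Itgb4 TPM. Of 7 epithelial markers 4 had a transcript in the series, and they summed to at most 18.1 in these clone libraries; their part in the Itgb4 level was not tested.

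Itga2b (chr11:102453297-102470122, minus strand), the alpha chain of the platelet fibrinogen receptor, separated the 3 lines within each virus state. Across virus states clone 2 and wild type overlapped. In wild type, Itga2b was at 15.95 and 16.4 untreated, 13.8 and 21.8 with plasmid, 10.6 and 12.7 with MyoD and 12.2 and 11.6 with both. In clone 1, Itga2b was at 4.302 and 0 untreated, 0 and 3.67 with plasmid, 0 and 4.24 with MyoD and 5.78 and 0 with both. In clone 2, Itga2b was at 43.3 and 38.7 untreated, 39.99 and 38.3 with plasmid, 19.6 and 30.96 with MyoD and 21.04 and 45.5 with both. Clone 1 was lower than wild type without MyoD (log2 -2.99 ± 0.699 (SE), adjusted p = 0.0279), a call that was lost without any 1 of 6 of the 8 libraries (wild type untreated 1 and 2, wild type plasmid 1 and 2, clone 1 untreated 2, clone 1 plasmid 1; adjusted p = 0.0597 to 0.0918); with MyoD the value was -2.38 (adjusted p = 0.0604). Clone 2 lay above wild type in every library at either virus state, with log2 differences of 1.21 and 1.17 that were not called from TPM and were called by exon coverage (2.32 and 2.01, adjusted p = 2.72e-04 and 9.94e-04). A transcript of 25 to 27 exons was assembled in each clone 2 library without MyoD, while wild type reached 11 exons and clone 1 only 3. The platelet markers Gp1bb, Pf4 and Ppbp together reached at most 26.3 rescaled TPM in any clone 2 library; their part was not tested.

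**Figure D5:**
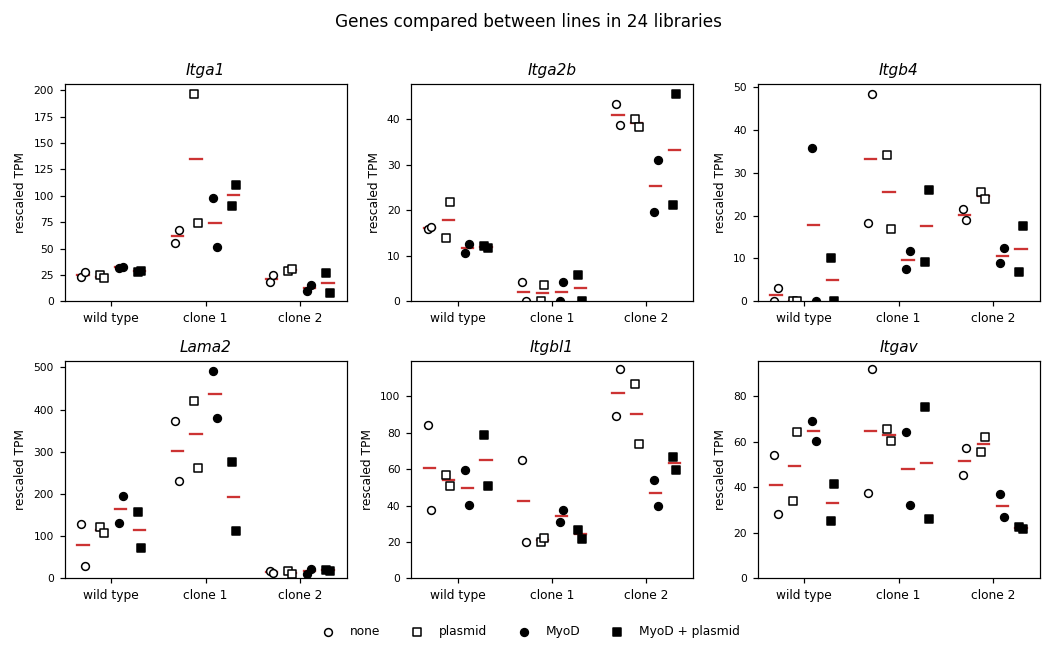
Rescaled TPM of Itga1, Itga2b, Itgb4, Lama2, Itgbl1 and Itgav in each of the 24 libraries, by line; open symbols are without and filled symbols with MyoD, squares are with plasmid, and red lines are means of 2 libraries. Itga1 is highest in clone 1, Itga2b in clone 2, and Lama2 is lowest in clone 2, where it stays between 10.5 and 22.1.

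Itgav, Itgb5, Itgb3 and Itga8, chains of integrins that bind the RGD motif of matrix proteins, were not called from TPM in any comparison. Mean Itgav levels in the untreated, plasmid, MyoD and combined groups were 41.1, 49.2, 64.9 and 33.3 in wild type, 64.9, 62.9, 48.2 and 50.8 in clone 1 and 51.5, 58.9, 31.98 and 22.2 in clone 2. In clone 2 its 4 libraries with MyoD lay below the 4 without (log2 -1.02 ± 0.378 (SE), adjusted p = 0.201). Itgb5, a partner of Itgav, had group means in the same order of 62.99, 56.2, 67.2 and 60.6 in wild type, 41.8, 58.02, 64.9 and 43.4 in clone 1 and 45.3, 58.7, 33.2 and 40.2 in clone 2. By exon coverage it was lower in clone 2 than in wild type with MyoD (log2 -1.10 ± 0.326 (SE), adjusted p = 0.016). Itgb3, another partner, had means of 12.4, 33.8, 18.9 and 17.1 in wild type and 10.9, 7.62, 8.25 and 4.26 in clone 2. In clone 1, Itgb3 was at 21.7 and 0 untreated, 0 and 0 with plasmid, 0 and 17.2 with MyoD and 17.2 and 9.79 with both. Itga8, which binds nephronectin with Itgb1, had means of 36.0, 26.2, 14.8 and 16.5 in wild type and 13.05, 17.03, 16.8 and 17.9 in clone 2. In clone 1, Itga8 was at 13.6 and 64.4 untreated, 12.6 and 0 with plasmid, 86.8 and 3.69 with MyoD and 0 and 79.3 with both, with replicates far apart.

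Itgb8 and Itgb6 pair with Itgav in receptors that activate latent TGF-beta. Itgb8 means were 16.1, 15.5, 21.6 and 4.62 in wild type, 22.6, 7.46, 0 and 6.11 in clone 1 and 6.34, 8.78, 3.29 and 5.97 in clone 2, and in clone 1 its value with MyoD was the nearest to a call (log2 -2.76 ± 0.7204 (SE), adjusted p = 0.0686), with 3 of 4 libraries listed at 0. Itgb6 means were 5.24, 0, 10.995 and 6.32 in wild type, 10.9, 6.85, 39.3 and 17.3 in clone 1 and 1.14, 2.03, 2.58 and 1.96 in clone 2, where 3 wild type, 0 clone 1 and 1 clone 2 libraries without MyoD were listed at 0. Itgbl1, a secreted protein with the repeats of a beta chain but no membrane part, had means of 60.7, 53.9, 49.9 and 64.8 in wild type, 42.6, 21.2, 34.2 and 24.2 in clone 1 and 102, 90.3, 46.9 and 63.3 in clone 2. In clone 2 its libraries with MyoD lay below those without, and the change did not pass (log2 -0.80 ± 0.338 (SE), adjusted p = 0.312). Clone 1 without MyoD was lower than wild type by exon coverage (log2 -1.10 ± 0.205 (SE), adjusted p = 0.00455) and not called from TPM (log2 -0.96).

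The leukocyte chains Itgal and Itgb7 each had a transcript in 4 of 24 libraries. Itgal reached 10.4 rescaled TPM. Itgb7 was listed at 0 in all wild type libraries; in clone 2 it was at 0 and 6.75 untreated and 2.38 and 6.15 with plasmid, and at 0 in the 4 libraries with MyoD, and in clone 1 it reached 8.78 in 1 library. Its call above wild type in clone 2 without MyoD (adjusted p = 0.0301) was lost without any 1 of 6 of the 8 libraries (wild type untreated 1 and 2, wild type plasmid 1 and 2, clone 2 untreated 2, clone 2 plasmid 2; adjusted p = 0.0692 to 0.177). Itgb2l, a relative of the leukocyte beta chain, had transcripts of 1 exon only. Its group means were 0.126, 0.146, 2.17 and 1.27 in wild type and 0, 8.95, 18.2 and 5.16 in clone 1, and it was listed at 0 in clone 2. The highest Itgb2l value, 29.8, was in clone 1 with MyoD replicate 1, the library with the high unassigned share. Lamb3, a laminin chain of epithelium, had means of 3.53, 0, 4.46 and 2.36 in wild type and 6.86, 6.97, 4.88 and 0.4201 in clone 2, and was not called in any comparison. In clone 1 Lamb3 was at 6.86 and 0 untreated, 0.332 and 0 with plasmid, 0 and 11.8 with MyoD and 0 and 28.2 with both.

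No member passed the test for the LncMyoD plasmid. Averaged over the 3 lines, none of 25 was called without MyoD (0.0995% of all genes, 0.0858% higher and 0.0137% lower) or with MyoD (0.233%, 0.0721% higher and 0.161% lower). At an unadjusted p under 0.05 there were 0 and 1 members, the latter Itga6, at log2 -1.86, beside 1559 and 2241 of 29136 genes. The median log2 difference of the members was -0.15 without and 0.03 with MyoD, beside 0.03 and -0.05 over all genes. A plasmid effect in 1 line alone was not tested.

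Genes that work with these proteins were counted in 4 lists. With MyoD in clone 2, none of 20 other integrin ligands rose and 10 fell, with a median log2 change of -1.35, beside 2.39% of all genes lower, 0.618% higher and a median of -0.07. The 3 largest falls were in Ccn1, a matrix protein that binds integrins (log2 -3.34, from 1697 to 171), thrombospondin Thbs1 (-2.66, from 256 to 41.0) and Mfge8 (-2.01, from 349.9 to 86.9). Of 19 basement membrane partners of laminin, 5 fell and 1 was called higher, with a median of -0.70. Fbln2 (-2.39), nidogen Nid2 (-2.14) and collagen IV chain Col4a1 (-1.48) fell most, and Col4a3 was called higher on 2 libraries alone, at 4.58 and 3.24 with MyoD and listed at 0 in both combined libraries and all 4 without MyoD. Of 29 cytoplasmic partners of integrins, vinculin Vcl (-2.14) and filamin Flna (-1.64) fell and parvin Parvb (1.80) rose, with a median of -0.24. Of 23 other laminin receptors and their modifiers, 3 fell and none rose, with a median of -0.46: Sspn (-2.14), B4gat1 (-1.90) and dystroglycan Dag1 (-1.56).

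In wild type with MyoD the 4 lists held 1 called gene, sarcoglycan Sgca, a member of the dystroglycan complex of muscle, which rose from 15.1 to 89.2 rescaled TPM (log2 2.49 ± 0.374, adjusted p = 0.00518). In clone 1 with MyoD they held none. Against wild type without MyoD, where 8.29% of all genes were lower and 16.4% higher in clone 2, 12 of 29 cytoplasmic partners were lower and 3 higher, led by tensin Tns3 (-4.96, 63.5 against 2031) and Lims2 (2.82). Of the other integrin ligands, 3 were lower and 4 higher, led by Thbs2 (-4.38) and osteopontin Spp1 (4.98). Of the laminin partners, 5 were lower and 2 higher, led by perlecan Hspg2 (-3.18) and Nid2 (3.48). Of the other laminin receptors and modifiers, 5 were lower and 7 higher, led by the O-mannosyl kinase Pomk (-3.65) and dystrophin Dmd (2.95). The values of Dmd and Lims2 rest on wild type levels at or near 0. Wild type Dmd was at 0 and 0 untreated and 0 and 5.66 with plasmid, and Lims2 at 0 and 0, and 0 and 4.90. In clone 1 without MyoD the lists held 7 higher and 5 lower genes, beside 1.14% of all genes higher and 1.1% lower. Of 29 cytoplasmic partners 2 were higher, and of 19 laminin partners 4 were lower. Of 20 other ligands 3 were higher and 1 lower, and of 23 other laminin receptors and modifiers 2 were higher. The furthest were Dmd (4.26), against the same wild type values, and Smoc2 (-3.81). Clone 1 against wild type with MyoD had 2 lower, 4 lower, 2 higher with 1 lower, and 1 lower in that order, beside 2.2% higher and 1.96% lower. With MyoD, where 10.5% of all genes were lower and 14.6% higher, clone 2 against wild type had 10 lower and 2 higher cytoplasmic partners, 8 and 2 laminin partners, 8 and 2 other ligands and 9 and 2 other laminin receptors and modifiers. Tns3 (-4.78), Nid1 (-4.21), Thbs2 (-5.77) and Dag1 (-4.27) were furthest below, and Spp1 (5.61) was furthest above. The MyoD response of clone 2 was itself lower than that of wild type for 6 of 20 other ligands, beside 0.896% of all genes, led by Ccn1 (-3.41), Thbs1 (-2.62) and Adam15 (-1.72). It was lower for 5 of 19 laminin partners, led by Nid2 (-2.35) and Fbln2 (-2.31), and higher for Col4a3, on the same 2 libraries (1.14). It was lower for 2 of 29 cytoplasmic partners, Vcl (-1.93) and Flna (-1.55), and for 1 of 23 other laminin receptors and modifiers, Dag1 (-1.74). The lists were fitted under the main scaling only.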

How the data were processed

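Total RNA of the 24 samples was turned into cDNA and libraries with the SMART-Seq v4 and TruePrep kits and sequenced as paired reads of 100 bases, per the labels' protocols. Tools named in the submitters' processing notes are HISAT2 2.1.0, StringTie 1.3.3, SAMtools 1.3, Trimmomatic 0.36 and bcl2fastq 2.19, with build mm10. Per the file headers, StringTie 2.1.2 assembled each library on its own with GENCODE vM21 as guide, which allows unannotated transcripts. The authors deposited per transcript the coverage, FPKM (not used) and TPM; read counts were not analysed here, so no count model was fitted.

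TPM was summed per gene (39024 genes with a value). A transcript with no reference name counted for the same-strand gene covering 50% or more of its exons, and was otherwise left out. Mitochondrial transcripts and those over Lars2 or the ribosomal repeat copy on chromosome 17 (Gm42418, Gm26917, AY036118) were left out, and each library was scaled to a total of 1000000. Genes with at least 1 rescaled TPM in at least 2 libraries were tested on log2(rescaled TPM + 1), a scale that understates the change of low genes. The test was limma 3.58.1 (R 4.3.3; trend on the mean level; 12 group means, 12 residual degrees of freedom). It gave 11 comparisons, adjusted by Benjamini-Hochberg over 29136 genes. The fit was tested on simulated data.

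The members, lists and tests were chosen with earlier results of these data known. A first run held all 39 annotated names; after its values were seen, the members were limited to genes with a reference-named transcript, which dropped Lamc3 and Lama5. Lamc3, with a value in 4 of 24 libraries, had been called in clone 2 (with MyoD, against wild type without MyoD, and in the response difference). Lama5 had been called in clone 2 against wild type with MyoD. Members called in a comparison, or with a mean of at least 10 rescaled TPM in a group, were named with their values; of each pathway list, up to 3 called genes in each direction could be named. Alternatives were the scaling, the gene sums, the pseudocount (0.1 and 5), the filter, the replicate block, the groups in the fit and leaving out each library; rescaling to protein-coding genes was added after seeing the data. Positions of genes are from GENCODE vM21 on mm10. The LncMyoD transcript was not analysed here. The values of 1 laminin gene are not reported here on their own; it is counted among the members and in the laminin sum.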

Additional observations from a re-analysis of the deposited data

Results flagged for a closer look

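The MyoD response differed between clone 2 and wild type for 3 genes, by the test of the difference itself in limma. Clone 2 minus wild type was -2.29 on the log2 scale for Itga5 (adjusted p = 0.00264), -1.68 for Lamb2 (adjusted p = 0.0033) and -1.46 for Lamb1 (adjusted p = 0.0302). All 4 clone 2 libraries with MyoD lay below the 4 without for each of the 3 genes, while in wild type the ranges of the libraries with and without MyoD overlapped. Groups of 2 libraries are too small to look for a single library far from its group.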

How the results depend on the processing

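Of 334 values of called genes under the processing alternatives, 270 kept direction and call, 58 lost the call and 6 turned. Leaving out 1 library kept 175 of 232 and turned none. With TPM as deposited, clone 2 against wild type with MyoD turned to 0.35 for Itga5, 0.69 for Lamb2, 1.01 for Itga1 and 1.02 for Lamc1. On that scale the median of all genes moved to 0.57 without and 0.29 with MyoD. Because the scale understates the change of low genes, this median does not measure the shift for well expressed genes such as these. The factor from deposited to rescaled TPM was 6.70 to 8.21 in wild type with MyoD and 1.34 to 1.62 in clone 2 with MyoD. With reference-named transcripts only, which leave 20 members to test, Lama2 in clone 1 against wild type without MyoD turned to -1.03 and Itga1 in clone 2 against wild type with MyoD to 0.38.

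Counts of called members moved as follows. In the MyoD response of wild type, reference-named transcripts gave 1 and exon coverage 1, against 0. In clone 1, a pseudocount of 0.1 gave 1 and the groups without plasmid 2, against 0, and leaving out a library gave 0 to 1. In clone 2, TPM as deposited gave 10 (1 higher, 9 lower), reference-named transcripts 0 and the groups without plasmid 3, against 5. Clone 1 against wild type without MyoD gave 2 on TPM as deposited, 1 with reference-named transcripts, 0 in the groups without plasmid and 0 with only the compared groups in the fit, against 4, and 1 to 5 on leaving out a library. With MyoD the count of 1 became 2 on TPM as deposited, 3 by median of ratios, 2 by quantile normalization and 3 with reference-named transcripts. It became 2 with pseudocounts of 0.1 and of 5, 2 with the filter at 5 and 0 with only the compared groups, and was 0 to 4 on leaving out a library. Clone 2 against wild type without MyoD gave 17 on TPM as deposited, 1 with reference-named transcripts and 2 in the groups without plasmid, against 6. With MyoD reference-named transcripts gave 3 (all lower) and TPM as deposited 10 (all higher), against 7. The response difference of clone 2 gave 0 with reference-named transcripts and 6 by exon coverage, against 3, and that of clone 1 gave 0 to 1 on leaving out a library, against 0. The causes were not tested. The setting without plasmid groups kept all 24 libraries in the fit but compared fewer of them. The setting with only the compared groups left fewer libraries in the fit.

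Same-numbered libraries did not deviate together (66 pairs of groups, r = -0.04 to 0.0237, median -0.0004), so no pairing by number was seen. Whether same-numbered libraries were prepared together cannot be told from this check. With the replicate block, clone 1 against wild type with MyoD had 2 called members in place of 1, and all 26 calls of genes stayed. Where leaving out a library leaves 1 in its group, the lone library is assumed to vary like the other groups. Clone 1 had the least sequence on genes; how far that limits its calls was not tested.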
